A study of Mus musculus with 217 samples.

Results

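Single metaphase II oocytes of 6-month-old Tet2 knockout mice were compared with those of wild-type mice of the same age, both groups having drunk water with the solvent DMSO from the age of 2 months. The columns of the count table that begin with MKOC (knockout) and MWTC (wild type) gave 20 oocytes each, so 40 of the 217 libraries of the series entered the comparison. By its title the study asked how resveratrol, a plant polyphenol, acts on the ovary in aging, and this pair gives the knockout difference at middle age without that compound. All oocytes used here came from mice of a C57BL6/129 background. Superovulation (a gonadotropin, then hCG) yielded ovulated oocytes, from which cumulus cells had been taken off with hyaluronidase. The other 131 oocytes of that background formed 4 further knockout and wild-type pairs: 15 and 18 oocytes at 2 months, 20 and 14 at 6 months with resveratrol, 15 and 20 at 10 months with DMSO, and 15 and 14 at 10 months with resveratrol. The 2-month mice are tagged as controls, and the 18 wild-type oocytes of that age carry a knockout tag that their titles contradict; the titles were followed. The part of Tet2 that was deleted, the cells it was deleted in and the animals that gave each oocyte are not given in the sources used here.

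Tet2 is one of a family of enzymes that oxidise 5-methylcytosine in DNA, a step towards the loss of the methyl mark, and Tet3 is the member that oocytes carry in abundance. A metaphase II oocyte makes almost no new RNA and lives on messages stored during growth, so its transcript levels reflect what was stored and what has since been degraded. Granulosa cells surround the oocyte in the follicle, and the cumulus cells nearest to it are joined to it by gap junctions.

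Wild-type libraries held 4294752 to 4661161 counts and knockout libraries 3952627 to 6116464, with medians of 17588 and 18411 genes detected. Levels below are CPM, read counts put on a common library size with TMM factors. Oocyte markers such as the growth factor genes Gdf9 and Bmp15 and the zona genes were high in every library of both groups, with a summed level of 17134, 23562 and 27716 CPM (lowest, median, highest) in wild type and 9618, 18142 and 23746 CPM in knockout oocytes. The groups overlapped, but 8 knockout oocytes lay below the lowest wild-type oocyte. Across genes, the median correlation of log levels between oocytes was 0.957 within wild type, 0.937 within knockout and 0.926 between them. No pair of libraries held identical values.

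The spread can be measured in different ways. Since no animal is named, the counts of each group were summed, and a model of the 10 sums took its spread from how the knockout difference varied over the other 4 pairs, with 3 residual degrees of freedom. In that model, edgeR's quasi-likelihood test called 0 of 22239 genes, with 1063 at an unadjusted p under 0.05 and a lowest adjusted p of 0.998, while DESeq2 on the same sums called 27 higher and 7 lower. The column headers also carry a number whose meaning is not stated (1 and 2 in wild type, with 10 oocytes each; 1, 2 and 3 in knockout, with 7, 6 and 7). Sums per header number, an analysis added after the files were seen, gave 26 sums and 16 residual degrees of freedom. With these, 333 genes (1.69% of 19706 tested) were higher and 69 (0.350%) lower in knockout oocytes at an adjusted p under 0.05. All gene calls, standard errors (SE) and adjusted p-values below come from that fit unless the 10 sums are named. If sums of one group share animals, these p-values are too small. The counts leaned on single sums: leaving out knockout sum 2 left 90 calls and knockout sum 3 left 255, against 339 without knockout sum 1. Without wild-type sum 1 or 2, which leaves 1 wild-type sum that is assumed to vary like the others, 18 and 10 calls were left.

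Tet2 itself lay at the low end of what these libraries measure. Its level was 0, 3.31 and 5.67 CPM (lowest, median, highest) in the wild-type oocytes and 0.15, 0.923 and 3.61 CPM in the knockout oocytes. The groups overlapped, and no knockout oocyte lay above the highest wild-type one. The log2 fold change was −1.36 (SE 0.32, adjusted p = 0.0272), and of the 5 fits that left out a sum it passed only without knockout sum 1 (adjusted p 0.041 to 0.421). In the 10 sums the log2 fold change was −1.42 with an adjusted p of 0.998. The sums held 277 counts of Tet2 in wild type and 132 in knockout, so transcripts that the gene counting assigned to Tet2 remained. Over the other 4 pairs the log2 fold change was −1.34 (adjusted p = 1.75e-05), and −1.45 (adjusted p = 0.000201) over the 3 of them left without the 6-month resveratrol pair. Tet3 was at 596 CPM in wild type and 683 CPM in knockout (log2 fold change 0.26, SE 0.15, adjusted p = 0.452), and Tet1 at 2.63 and 3.01 CPM (0.28, SE 0.33, adjusted p = 0.796). Of the 15 tested writers and erasers of DNA methylation, Tet2 alone passed. Dnmt3b, a de novo methyltransferase, was at 38.7 and 22.8 CPM (log2 fold change −0.67, adjusted p = 0.112), and its cofactor gene Dnmt3l at 99.4 and 67.7 CPM (−0.48, adjusted p = 0.296).

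Without any test, 8829 genes had a mean of at least 5 CPM over the 10 group sums. Of these, 290 (3.28%) were over 1.5-fold higher and 800 (9.06%) over 1.5-fold lower in the knockout sum, and the median log2 ratio was −0.13. The calls of the header-number sums, a different set of genes, differed by direction in level and in size of change. The 69 lower calls had a median level of 40.4 CPM in wild type and a median log2 fold change of −1.09. The 333 higher calls had a median of 0.186 CPM in wild type, 3.82 CPM in knockout and a median log2 fold change of 4.30. A gene scarce in wild type can enter the test through the knockout sums and needs a large change to pass. A scarce gene that falls is hard to call. This contrast is thus partly set by the filter and the power of the test, and nothing is read from it.

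**Figure D1:**
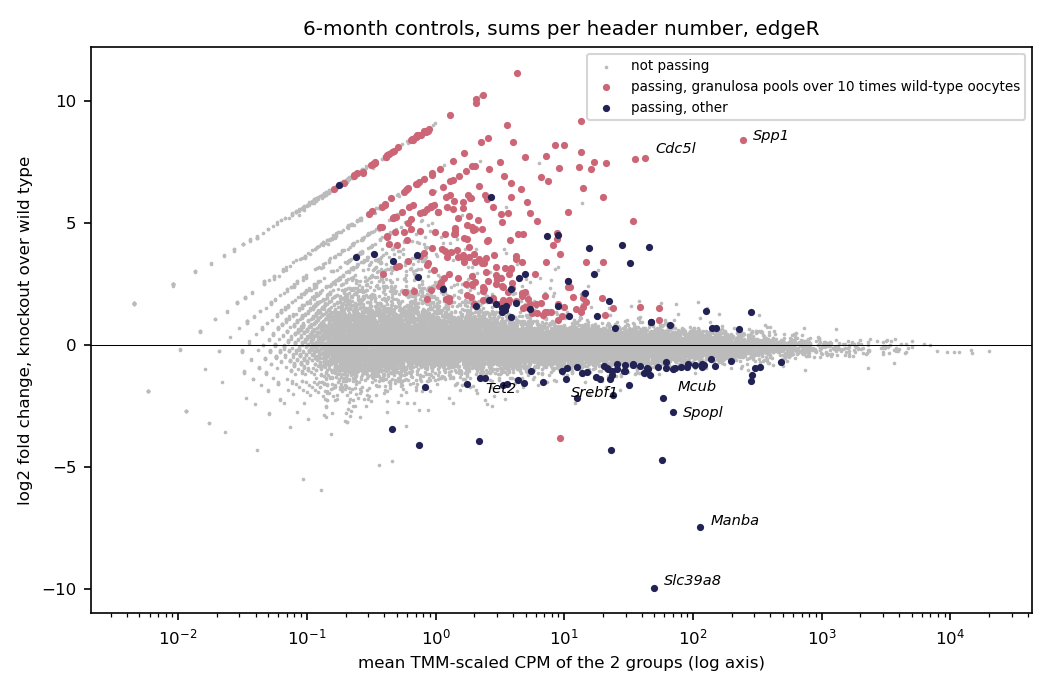
Log2 fold change of knockout over wild type (vertical axis) against the mean level of both groups in CPM (horizontal log axis) for the 19706 genes tested, 1 point a gene. Red points passed and had a mean level in granulosa cell pools over 10 times that in wild-type oocytes, dark points passed without it, and grey points did not pass; most of the 333 higher calls are red, and the 69 lower calls are dark but for 1.

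The deepest losses were at genes near Tet2 on chromosome 3. Slc39a8, which encodes a zinc and manganese transporter, is at chr3:135825279-135888572 on the plus strand of GRCm38, and Manba, which encodes the lysosomal enzyme beta-mannosidase, is at chr3:135485611-135571404 on the same strand. Tet2 is at chr3:133463679-133545139 on the minus strand. Mcub, which encodes a subunit that dampens the mitochondrial calcium uniporter, lies on the other side at chr3:129914960-129970206, as does Papss1, an enzyme that makes the sulphate donor of the cell, at chr3:131564768-131643671. The promoters of these 4 neighbours are shown because they are the only tested genes within 10 Mb of Tet2 whose oocytes did not overlap between the groups, and because CG pairs (in capitals; the same on both strands) are where Tet enzymes act. Over all 19706 genes tested, 19 did not overlap in this way. Each runs from 250 bases before to 50 after a RefSeq start (build GRCm38.p6), 5′ to 3′ on the strand of the gene, at chr3:135825029-135825328, chr3:135485361-135485660, chr3:129970157-129970456 and chr3:131564518-131564817 in the order below.
Slc39a8: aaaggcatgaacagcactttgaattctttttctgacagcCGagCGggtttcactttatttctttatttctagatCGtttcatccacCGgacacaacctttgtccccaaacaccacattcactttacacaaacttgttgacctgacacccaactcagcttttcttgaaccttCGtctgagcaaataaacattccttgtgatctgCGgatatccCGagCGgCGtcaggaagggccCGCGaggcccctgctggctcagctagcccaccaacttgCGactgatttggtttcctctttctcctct
Manba: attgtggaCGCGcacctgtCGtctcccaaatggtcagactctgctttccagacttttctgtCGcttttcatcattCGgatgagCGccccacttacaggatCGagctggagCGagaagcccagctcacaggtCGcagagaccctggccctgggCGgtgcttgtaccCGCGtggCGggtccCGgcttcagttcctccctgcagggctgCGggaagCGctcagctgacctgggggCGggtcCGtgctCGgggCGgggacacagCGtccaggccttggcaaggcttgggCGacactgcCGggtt
Mcub: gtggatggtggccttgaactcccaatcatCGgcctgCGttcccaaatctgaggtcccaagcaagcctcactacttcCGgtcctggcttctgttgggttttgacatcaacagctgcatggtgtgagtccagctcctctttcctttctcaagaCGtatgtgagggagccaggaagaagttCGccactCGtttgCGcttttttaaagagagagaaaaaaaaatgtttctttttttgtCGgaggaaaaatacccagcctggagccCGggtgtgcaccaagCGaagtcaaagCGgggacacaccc
Papss1: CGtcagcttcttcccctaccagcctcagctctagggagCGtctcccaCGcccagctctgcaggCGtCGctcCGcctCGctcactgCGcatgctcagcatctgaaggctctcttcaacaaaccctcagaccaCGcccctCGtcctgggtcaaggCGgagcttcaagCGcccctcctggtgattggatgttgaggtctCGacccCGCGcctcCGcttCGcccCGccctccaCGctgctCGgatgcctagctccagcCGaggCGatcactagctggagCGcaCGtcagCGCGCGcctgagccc
They hold 12, 23, 11 and 27 CG pairs in the same order, against a median of 7 over 32851 RefSeq promoters of 300 bases, of which 94.6% hold at least 1. As many or more are found in 39.6%, 21.5%, 41.4% and 15.5% of those promoters.

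Slc39a8 was detected in every wild-type oocyte, at 4.51, 75.9 and 326 CPM (lowest, median, highest). In knockout oocytes it was at 0, 0 and 0.6 CPM, and the groups did not overlap. The header-number sums stood at 95.1 and 103 CPM in wild type and at 0.0723, 0.178 and 0.0286 CPM in knockout (log2 fold change −9.95, SE 1.17, adjusted p = 9.27e-05). Manba showed the same separation, with 140, 211 and 300 CPM in wild-type oocytes and 0.355, 0.945 and 3.41 CPM in knockout oocytes (−7.47, SE 1.1, adjusted p = 0.000777). Mcub was at 65.0, 96.7 and 137 CPM in wild type and 11.5, 19.8 and 32.1 CPM in knockout, again without overlap (−2.19, SE 0.40, adjusted p = 0.00586). Sgms2, a sphingomyelin synthase gene between Mcub and Tet2, was at 5.01, 18.7 and 37.1 CPM against 0.925, 3.76 and 10.0 CPM, with overlap (−2.18, SE 0.51, adjusted p = 0.0254). Slc39a8 and Manba passed in all 5 fits that left out a sum. Mcub passed in 3, losing its call without either wild-type sum, and Sgms2 in 0.

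Papss1 moved the other way, at 47.2, 75.8 and 89.6 CPM in wild-type and 105, 174 and 259 CPM in knockout oocytes, without overlap (log2 fold change 1.38, SE 0.33, adjusted p = 0.0292). Rpl34, a gene of the large ribosomal subunit at chr3:130726831-130730398, also rose, from 5.67 to 22.8 CPM in the sums (2.09, SE 0.42, adjusted p = 0.0109), a call lost without either wild-type sum. Its processed copy Rpl34-ps1 on chromosome 6 fell from 17.3 to 1.15 CPM (−3.83, SE 0.67, adjusted p = 0.00421). Reads of near-identical copies can be split between them in counting, so both values are uncertain. Rpl34-ps1 was named after its value was seen.

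Within 10 Mb of Tet2, 73 genes were tested. Of these 6 were lower (8.22%, against 0.350% of all genes) and 3 higher (4.11%, against 1.69%). The remaining calls were Cyp2u1, a cytochrome P450 gene (7.60 to 3.41 CPM, log2 fold change −1.09, adjusted p = 0.0474), Adh6b, an alcohol dehydrogenase gene (0.849 to 0.0727 CPM, −3.44, adjusted p = 0.0335), and Casp6, which encodes an executioner caspase (0.825 to 2.94 CPM, 1.95, adjusted p = 0.0477). The median log2 fold change of the 73 genes was 0.08, against 0.03 for all genes tested. In the other 4 pairs, which hold none of these oocytes, all 6 lower genes were called lower and 2 of the 3 higher genes higher, Casp6 being the exception (0.26, adjusted p = 0.612). Of the 73 genes, 10 were called lower there and 11 higher, where 5.00% and 3.91% of all genes were. Those 4 pairs include the 6-month resveratrol knockout oocytes, of which 12 of 20 held Manba at 43.2 CPM or more, in contrast to the 20 knockout controls (at most 3.41 CPM). Mcub lay between 14.8 and 30.6 CPM in all 20 of these oocytes, against 43.5 to 88.3 CPM in their wild-type partners. Manba was thus split among these 20 oocytes, while Mcub was not. Tet2 itself had a log2 ratio of −1.20 in the group sums of this pair, against −1.42 in the 6-month controls. Manba was not shown to report the deletion, and whether each oocyte carries it was not tested. Without that pair, an analysis added after seeing the data, 5 of the 6 lower genes and the same 2 higher genes passed over the other 3 pairs, Cyp2u1 being lost (−0.59, adjusted p = 0.0656). Over those 3 pairs 2.27% of all genes were called lower and 1.34% higher. Slc39a8 then changed by −8.09 there, against −6.05 over all 4, and Manba by −7.19 against −5.74.

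**Figure D2:**
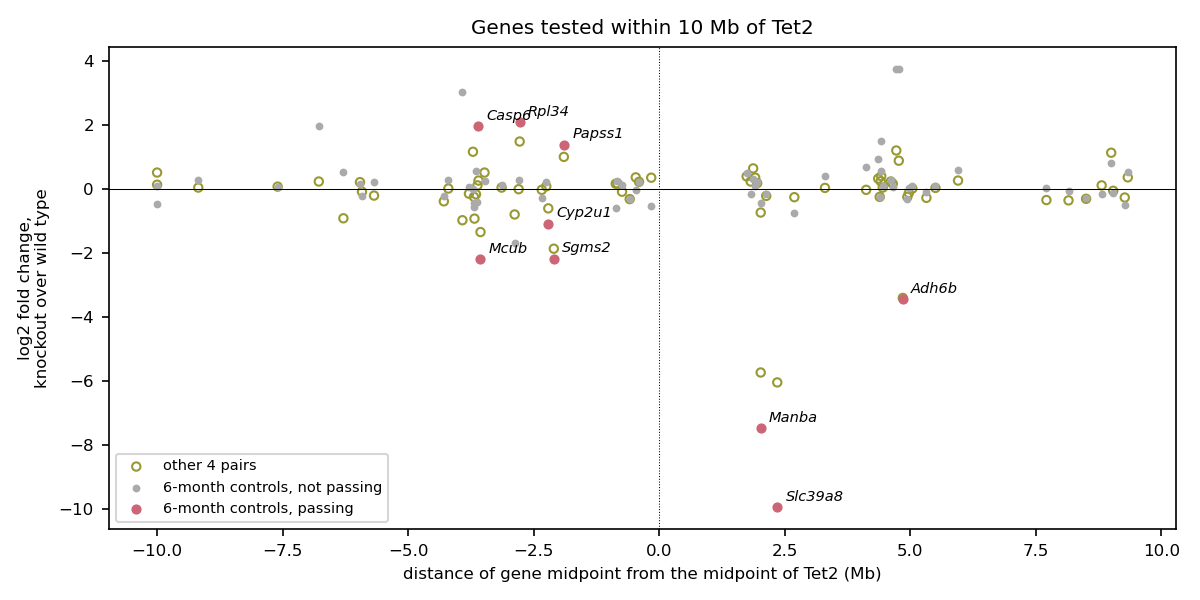
Log2 fold change of knockout over wild type for the 73 tested genes within 10 Mb of Tet2, against the distance of the gene's midpoint from that of Tet2 (Mb; Tet2 itself not drawn). Filled points are the 6-month controls (red where the adjusted p was under 0.05) and open points the mean of the other 4 pairs; Slc39a8 (−9.95) and Manba (−7.47) lie far below the rest.

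Spopl, on chromosome 2 (chr2:23506220-23572106), joined these losses away from Tet2. It encodes a substrate adaptor of cullin ubiquitin ligases. Wild-type oocytes held 106, 119 and 166 CPM and knockout oocytes 12.2, 15.9 and 29.4 CPM, without overlap (log2 fold change −2.76, SE 0.43, adjusted p = 0.00128). Over the other 4 pairs Spopl changed by −1.78 (adjusted p = 9.9e-06), and by −2.03 (adjusted p = 0.000201) without the 6-month resveratrol pair. Pair by pair, in group sums, its log2 ratio was −1.84 at 2 months, −2.85 in the 6-month controls, −1.26 at 6 months with resveratrol, −2.60 at 10 months and −2.22 at 10 months with resveratrol. Every pair had the same sign, and the 6-month resveratrol pair was the weakest.

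**Figure D3:**
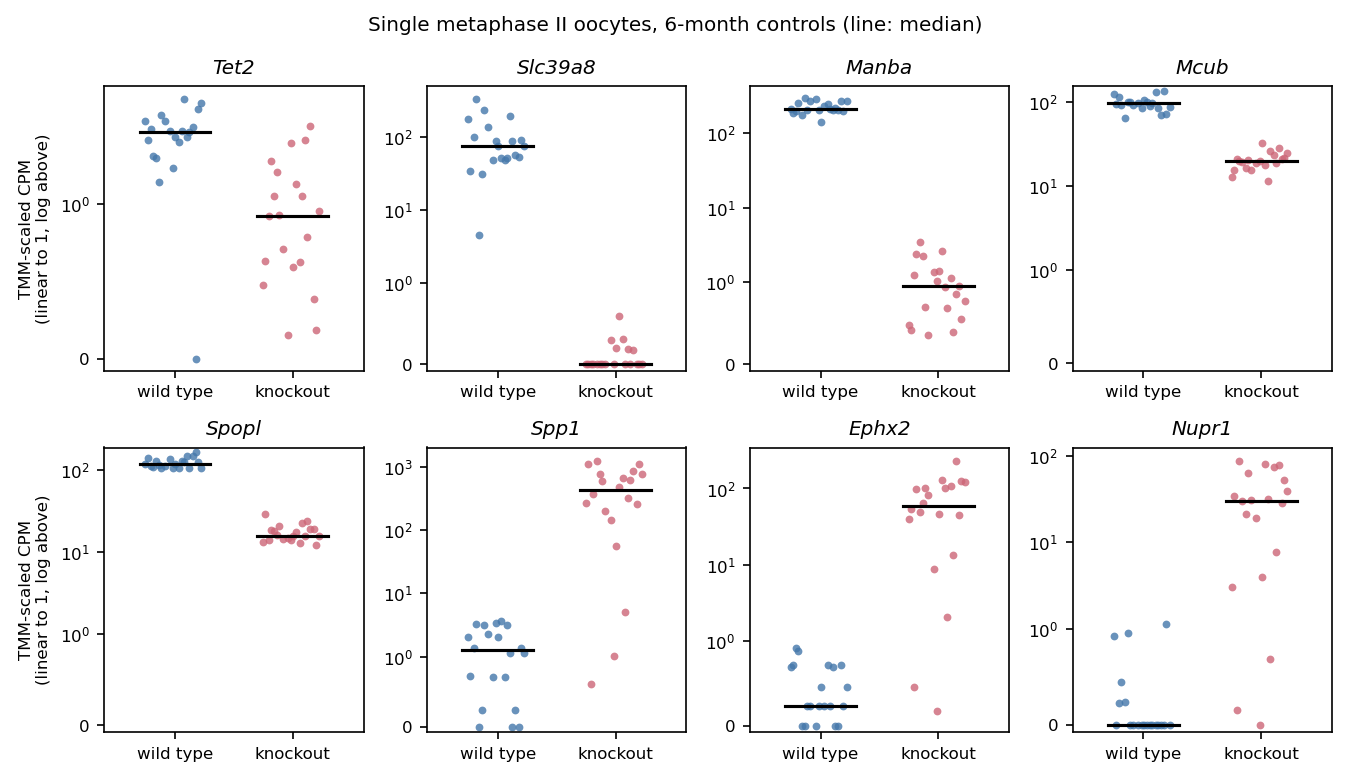
Level of 8 genes in each of the 20 wild-type (blue) and 20 knockout (red) oocytes at 6 months, in CPM on an axis that is linear to 1 and logarithmic above; the line is the median. Slc39a8, Manba, Mcub and Spopl separate the groups fully, Tet2 does not, and Spp1, Ephx2 and Nupr1 are high in most but not all knockout oocytes.

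Srebf1, the master regulator of fatty acid synthesis genes, fell in the 6-month controls, with 10.5, 47.0 and 115 CPM in wild-type and 7, 13.6 and 38.2 CPM in knockout oocytes (log2 fold change −1.64, SE 0.28, adjusted p = 0.00395). The groups overlapped, and 7 knockout oocytes lay below the lowest wild-type one. The other 4 pairs gave −0.18 (adjusted p = 0.509), and the difference from them was −1.47 (SE 0.32, adjusted p = 0.0436). Pair by pair, however, the log2 ratio was −1.09 at 6 months with resveratrol, −0.65 at 10 months and −0.50 at 10 months with resveratrol, and only the 2-month pair was above 0 (1.55). Mtmr12, a phosphatase-like adaptor of the myotubularin family, fell from 10.4 to 3.39 CPM (−1.54, SE 0.24, adjusted p = 0.00149). Both genes lost their call without wild-type sum 2. Of the other genes with the lowest ratios, 3 did not pass: Extl1 (25.2 and 6.03 CPM, adjusted p = 0.480), Atp6v0e2 (12.8 and 4.33 CPM, adjusted p = 0.0639) and Top3a (29.3 and 10.1 CPM, adjusted p = 0.372).

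Among the other lower calls, 57 of the 69 were at 10 CPM or more in wild type, and most were modest. Examples chosen after their values were seen are 3 chromatin genes and 2 autophagy genes. Wdr5, a subunit of histone H3K4 methyltransferase complexes, was at 165, 427 and 654 CPM in wild-type and 124, 209 and 255 CPM in knockout oocytes (log2 fold change −0.96, SE 0.21, adjusted p = 0.0171). Phf1, a partner of the Polycomb complex PRC2, went from 412 to 167 CPM (−1.23, adjusted p = 0.027), and Bap1, a deubiquitinase of histone H2A, from 71.2 to 35.5 CPM (−0.93, adjusted p = 0.0446). Chromatin genes did not fall as a group. The 34 tested genes of histone methylation held no call and had a median log2 fold change of 0.21 (0.03 for all genes tested). Among them Ezh2 was at 273 and 453 CPM (0.79, adjusted p = 0.186) and Suv39h2 at 97.4 and 176 CPM (0.94, adjusted p = 0.408). Rubcn, a brake on autophagosome maturation, went from 610 to 358 CPM (−0.70, adjusted p = 0.0476), and the autophagy receptor gene Nbr1 from 170 to 108 CPM (−0.59, adjusted p = 0.0474). All 69 lower genes had the same sign in the other 4 pairs and 49 passed there, where 5.00% of all genes were called lower. Without the 6-month resveratrol pair, 64 had the same sign and 32 passed (2.27% of all genes).

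The largest gains were of a different kind. Spp1, which encodes the secreted matrix protein osteopontin, was at 0, 1.27 and 3.71 CPM in wild-type oocytes and 0.612, 429 and 1256 CPM in knockout oocytes; 18 of 20 knockout oocytes lay above the highest wild-type one (log2 fold change 8.39, SE 1.46, adjusted p = 0.00408). Ephx2, the soluble epoxide hydrolase, was at 0, 0.231 and 0.916 CPM against 0.171, 58.8 and 231 CPM, with 18 of 20 above (7.62, SE 0.96, adjusted p = 0.000246). Nupr1, a stress-induced nuclear protein gene, was at 0, 0 and 1.14 CPM against 0, 30.5 and 88.2 CPM, with 17 of 20 above (7.50, SE 0.76, adjusted p = 4.84e-05). These rises were uneven from oocyte to oocyte, and 2 or 3 knockout oocytes stayed at wild-type levels of each gene.

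The other largest gains included several genes of follicular somatic cells. Inha, the inhibin alpha subunit of granulosa cells, went from 0.116 to 27.1 CPM (log2 fold change 7.90, SE 1.09, adjusted p = 0.000777). Tnfaip6, a hyaluronan-binding protein of the expanding cumulus, went from 0.0465 to 27.0 CPM (9.15, SE 1.48, adjusted p = 0.00274). Gja1, the gap junction protein of granulosa cells, went from 0.0697 to 20 CPM (8.19, SE 1.05, adjusted p = 0.000552), and Timp1, an inhibitor of metalloproteinases, from 0.0581 to 16.9 CPM (8.20, SE 0.90, adjusted p = 9.27e-05). Sfrp4, a secreted Wnt antagonist, went from 0.0697 to 14.3 CPM (7.73, SE 1.37, adjusted p = 0.013). Nupr1, Ephx2, Timp1 and Gja1 passed in all 5 fits that left out a sum. Inha lost its call without wild-type sum 2, and Spp1, Tnfaip6 and Sfrp4 lost theirs without either wild-type sum.

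Transcripts of granulosa and cumulus cells moved with the knockout group. The 18 markers of these cells summed to 42.4, 74.1 and 106 CPM in wild-type oocytes and 20.8, 150 and 495 CPM in knockout oocytes, and 13 of 20 knockout oocytes exceeded the highest wild-type oocyte. Of the 18 markers, 16 were higher in the knockout sum and 5 had no counts in wild type. Of the 14 tested, 8 rose (Cyp11a1, Hsd3b1, Inha, Inhba, Ptgs2, Ptx3, Tnfaip6 and Vcan), where 1.69% of all genes tested were higher. These 8 were at 0.779 CPM or less in wild type and can enter the test through the knockout sums alone. Nothing is therefore read from these counts. Ptx3, which stabilises the cumulus matrix, had 0 counts in wild type and 941 in knockout, at least 245-fold higher against a floor of 3 counts over the group, though its median knockout oocyte was at 0.274 CPM and its highest at 82.7 CPM. Fshr, the receptor of follicle-stimulating hormone (0.0349 and 0.154 CPM), and Amh (0 and 0.0545 CPM) stayed near 0 in both groups. Cyp19a1, the aromatase gene, was at 59.6 and 52.2 CPM and made up most of the wild-type sum of markers.

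**Figure D4:**
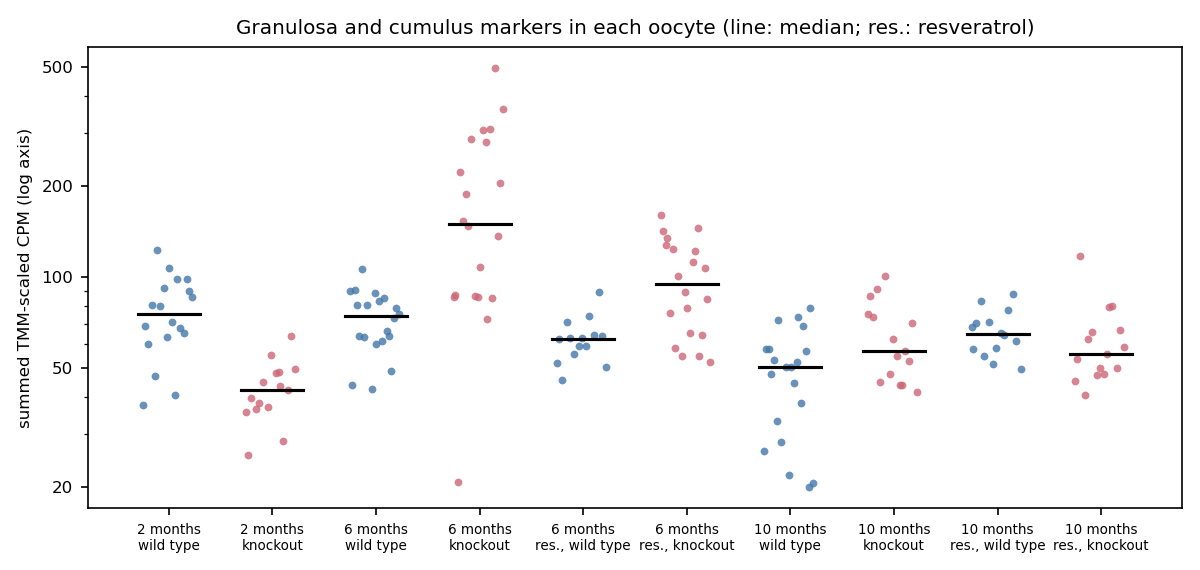
Summed level of 18 granulosa and cumulus markers in each oocyte (CPM, log axis) in the 10 groups; blue is wild type, red is knockout and the line is the median. The 6-month knockout control group has the highest median (150 CPM) and reaches 495 CPM, and its wild-type partner stays at or below 106 CPM.

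The gains can be set beside the 18 pools of granulosa cells in the series. By their titles these came from knockout and wild-type mice of 2 and 10 months, and some of the 10-month pools had resveratrol. None came from mice of the age compared here, so the pools are not a matched reference. Of the 333 higher genes, 290 (87.1%) had a mean level in those pools over 10 times that of the wild-type oocytes, as did 1 of the 69 lower genes and 19.2% of all genes tested. The wild-type level enters both this ratio and the calls. Its median was 0.186 CPM in the higher genes, 40.4 CPM in the lower genes and 3.25 CPM in all genes tested. The shares are thus not matched for level, and nothing is concluded from them. The levels of Spp1, Ephx2, Nupr1, Inha, Tnfaip6, Gja1, Timp1 and Sfrp4 in the knockout sum were 0.748%, 0.976%, 2.17%, 1.98%, 2.15%, 1.77%, 0.725% and 0.764% of their level in the pools. In the wild-type sum the same genes were at 0.00241% to 0.0127% of the pools. Cdc5l, a splicing factor gene, differed from these: its knockout level of 84.0 CPM was 147% of that in the pools, against 0.465 CPM in wild type (log2 fold change 7.65, SE 1.79, adjusted p = 0.026). It did not pass without knockout sum 2 or either wild-type sum. Galnt7, a glycosyltransferase gene, was at 12.6 CPM or 53.8% of the pools, against 0.0697 CPM in wild type, and did not pass (adjusted p = 0.0888).

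Every oocyte above the highest wild-type control oocyte in these markers was then left out, a step chosen after seeing the data. It kept 7 knockout controls (3, 1 and 3 by header number) and all 20 wild-type controls, and in the other 8 groups it took out 12 of 131 oocytes, 10 of them 6-month resveratrol knockouts, with the loss of 1 sum. Of the 333 higher genes 25 still passed, and of the 69 lower genes 16; in all 30 were higher and 22 lower. Slc39a8 (adjusted p = 0.0019), Manba (0.00621), Spopl (0.0137) and Mcub (0.0295) still passed, while Papss1 kept its size and lost its call (1.38 to 1.37, adjusted p = 0.0809). Timp1 still passed, and its log2 fold change went from 8.20 to 7.43 (adjusted p = 0.0137). Ephx2 and Nupr1 passed with smaller ones, 7.62 becoming 5.43 (adjusted p = 0.0246) and 7.50 becoming 5.97 (adjusted p = 0.0420). Inha (7.90 to 4.37, adjusted p = 0.224) and Tnfaip6 (9.15 to 5.61, adjusted p = 0.166) lost both size and call. Both are among the markers by which oocytes were left out, so a smaller difference was built into this step and nothing is read from it. Spp1 (8.39 to 7.60, adjusted p = 0.0587) and Srebf1 (−1.64 to −1.33, adjusted p = 0.0634) lost the call at a similar size, and Tet2 lost it at a larger one (−1.36 to −1.77, adjusted p = 0.0778). With the 13 knockout controls alone left out, 45 genes were higher and 34 lower, and Spp1 (7.58, adjusted p = 0.0332) and Srebf1 (−1.34, adjusted p = 0.0433) passed. Knockout libraries were also the more variable in depth, and thinning every oocyte to 3386039 counts gave 306 higher and 74 lower genes. The part of granulosa or cumulus transcripts in the single results was not tested beyond these values. Markers of other cells also differed. The 6 erythroid markers, at low levels throughout, summed to 0, 0.114 and 0.718 CPM in wild-type and 0, 1.26 and 4.17 CPM in knockout oocytes, of which 12 of 20 exceeded the highest wild-type one; neither of the 2 tested passed. The 13 macrophage and leukocyte markers summed to 9.54, 19 and 26.3 CPM in wild-type and 11.2, 17.5 and 285 CPM in knockout oocytes, of which 2 exceeded the highest wild-type one. In the sums, 11 of these 13 were higher in knockout, and 0 of the 11 tested passed (median log2 fold change 3.91, against 0.03 for all genes).

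Among functional gene lists, 17 of 29 held no call. At the share of all genes called (1.69% higher and 0.350% lower), few calls or none fall in lists of this size, so nothing is read from these counts. None of the 16 tested oocyte growth factor and zona genes passed (median log2 fold change −0.27), none of the 12 genes of the subcortical maternal complex, a maternal assembly needed for cleavage (−0.32), and none of 24 genes of meiotic maturation and metaphase arrest (−0.13), against a median of 0.03 over all genes tested. That baseline holds many scarce genes. In group sums, among genes with a mean of at least 5 CPM, the 3 lists had median log2 ratios of −0.33, −0.39 and −0.21. The median of all 8829 such genes was −0.13. Tle6 and Nlrp5 of the subcortical complex were at 437 and 269 CPM and at 666 and 444 CPM in wild type and knockout (adjusted p = 0.482 and 0.508). Pkmyt1, a kinase that restrains Cdk1, was at 82.4 and 48.5 CPM (log2 fold change −0.69, adjusted p = 0.116). The 7 sirtuin genes, often named with resveratrol, had a median log2 fold change of 0.11.

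Cytosolic ribosomal protein genes had the most calls of any list, with 15 of 79 higher (19%, against 1.69% of all genes) and 0 lower. Their median log2 fold change was 0.61, and 14 of the 79 were higher in the other 4 pairs, where 3.91% of all genes were, and 5 of 78 (against 1.34%) without the 6-month resveratrol pair. Rpl3 went from 0.372 to 8.32 CPM (log2 fold change 4.55, adjusted p = 0.00469) and Rps19 from 0.883 to 8.55 CPM (3.38, adjusted p = 0.0138). The abundant member Rps2 went the other way, at 146 and 62.1 CPM, and did not pass (−1.14, SE 0.73, adjusted p = 0.54). For Rps2, 13 knockout oocytes lay below the lowest wild-type one. Without the oocytes high in granulosa markers 1 of the 79 passed. Ribosomal protein genes have many processed copies that can share reads.

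The remaining lists with a call held 1 or 2 each, where 1.69% of all genes tested were higher and 0.350% lower. Of 15 cohesin and separase genes, Rad21, a core cohesin subunit, rose from 33.8 to 61.4 CPM (log2 fold change 0.93, adjusted p = 0.0475), and Espl1, the separase that cleaves cohesin at anaphase, fell from 118 to 64.9 CPM (−0.79, adjusted p = 0.0331). Cnot6, a deadenylase of stored mRNA, rose from 19.7 to 29.7 CPM (0.67, adjusted p = 0.0443). Of 22 genes of the endoplasmic reticulum stress response, Pdia3 rose from 37.5 to 70.9 CPM (1.00, adjusted p = 0.0446) and Xbp1 from 0.0814 to 7.59 CPM (6.62, adjusted p = 0.000777). Their relative Pdia6 separated the oocytes fully, at 48.8, 68.1 and 92.5 CPM in wild type and 114, 168 and 390 CPM in knockout, yet did not pass (1.51, SE 0.49, adjusted p = 0.120). Bcl2l1, an inhibitor of apoptosis, fell from 77.3 to 45.3 CPM (−0.71, adjusted p = 0.0499). Idh2, which makes the Tet cofactor 2-oxoglutarate, rose from 0.0349 to 1.81 CPM (5.66, adjusted p = 0.0293), among 11 tested genes of cofactor supply and partners. Its level in the granulosa cell pools was 85.5 CPM, and it did not pass without the oocytes high in granulosa markers (4.15, adjusted p = 0.267). Obox3, an oocyte homeobox gene, was at 6.46 and 58.6 CPM (3.33, adjusted p = 0.0172); it belongs to a cluster of close copies, so its counts are uncertain. Of these named members, Rad21, Espl1 and Cnot6 lost their call whichever sum was left out, Pdia3 kept it only without knockout sum 3, and Obox3 and Bcl2l1 only without knockout sum 1. The other higher genes in these lists were Ndufc1, Atp5j and Uqcrc1 of the respiratory chain, the proteasome subunit gene Psmb7 and the peroxiredoxin gene Prdx4.

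**Figure D5:**
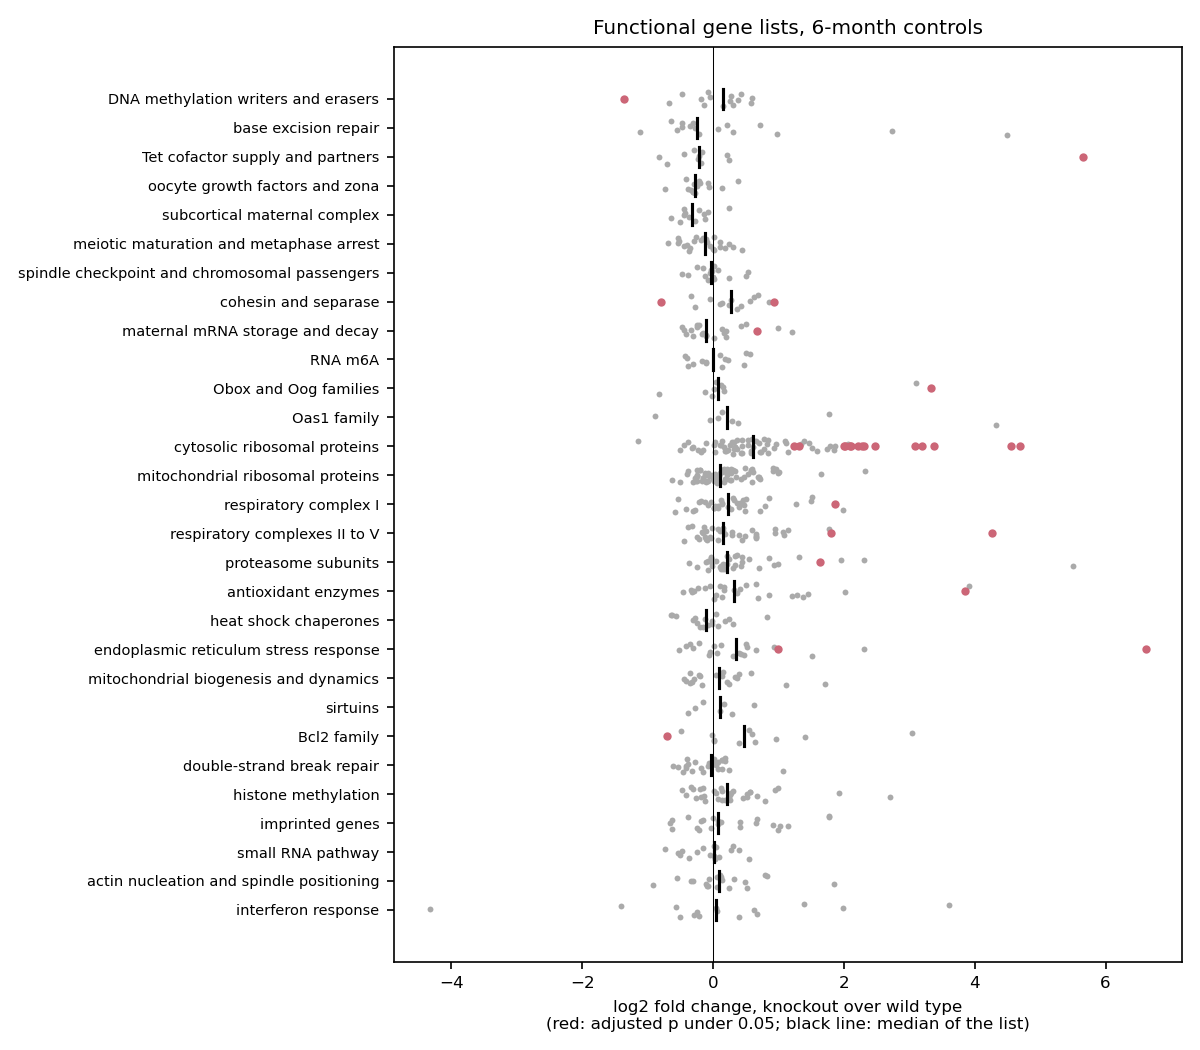
Log2 fold change of knockout over wild type for every tested member of 29 functional gene lists, 1 point a gene, red where the adjusted p was under 0.05; the black line is the list's median. Medians lie close to 0 (0.03 for all genes), and cytosolic ribosomal proteins (0.61) show the most red points, all to the right.

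The knockout differences were then set beside those of the other 4 pairs. Of the 333 higher genes, 277 had the same sign over the other 4 pairs and 55 passed there, where 3.91% of all genes were called higher. By the test of the difference, 28 of the 333 differed from those pairs, as did 1 of the 69 lower genes. Without the 6-month resveratrol pair, 170 of the 333 had the same sign over the other 3 and 16 passed there (1.34% of all genes were called higher). From those 3 pairs 82 of the 333 differed, as did 3 of the 69. The share of all genes with the same sign was not computed, so nothing is read from the sign counts. In all 58 genes differed from the other pairs, 33 upward (0.167%) and 25 downward (0.127%), while the 10 sums gave 0 with edgeR (547 at an unadjusted p under 0.05) and 0 with DESeq2; without the 6-month resveratrol pair 108 differed. Spp1 had log2 ratios of −3.08 at 2 months, 8.27 in the 6-month controls, 7.91 at 6 months with resveratrol, 3.21 at 10 months and −6.90 at 10 months with resveratrol. Ephx2 followed with 2.27, 7.50, 5.57, −3.11 and 0.09 in the same order, and Nupr1 with −1.77, 7.37, 5.82, 1.97 and −2.32. In group sums both 6-month pairs were thus high for these 3 genes. The median 6-month resveratrol knockout oocyte, however, held 5 CPM of Spp1, 1.1 CPM of Ephx2 and 0.626 CPM of Nupr1. Medians of the knockout controls were 429, 58.8 and 30.5 CPM, and those of the resveratrol wild-type oocytes 0.235, 0.352 and 0 CPM. Granulosa and cumulus markers were also higher in the 6-month resveratrol knockout oocytes (median 94.9 CPM) than in their wild-type partners (62.3 CPM). Cdc5l changed sign between pairs, with −4.47 at 2 months, 7.48 in the 6-month controls and 0.22, 4.94 and −0.49 in the rest. Some genes differed because the other pairs moved: Arid5b, a chromatin cofactor gene named after its values were seen, had ratios of 5.74 at 2 months and 5.41 at 6 months with resveratrol, but −0.23 in the 6-month controls, 0.07 at 10 months and −0.33 at 10 months with resveratrol.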

How the data were processed

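The authors deposited raw read counts for 53619 gene symbols (28390 of them found in GENCODE vM21, on GRCm38, which is mm10). Libraries were made with Smart-seq2, per the labels' protocols. Tools listed in the submitters' processing notes are HISAT2 2.1.0, featureCounts and DESeq2, with the build mm10 and no roles. Strand use in counting is not given, so overlapping and antisense genes cannot be told apart. Groups came from sample titles, and columns were assigned by the group in their header. Counts were summed per group (10 sums) and, as an analysis added after the files were seen, per header number (26 sums; 1 oocyte whose header has no number was left out of these). Both entered edgeR 4.0.16 under R 4.3.3 (quasi-likelihood, TMM factors, filterByExpr with a minimum count of 10, Benjamini-Hochberg over all genes tested, threshold 0.05, two-sided). DESeq2 1.42.0, RLE factors, no filter, thinned oocytes, sums without each gene's highest oocyte, and fits without single pairs or sums were alternatives. No source says that oocytes came from separate animals, so p-values describe the spread between these libraries, possibly a technical one. Reads carry no molecular identifiers, so floors cover counting error only.

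Genes named are Tet1, Tet2 and Tet3, the 10 highest and 10 lowest ratios of the 6-month sums (at least 10 CPM in the higher sum and 1 CPM in 10 or more of its oocytes), up to 2 per list with a mean of 5 CPM or more, and the 4 lowest p for the difference from the other pairs; numbered gene models are not named. Members, lists and rules were chosen with earlier results of these data known. Other genes named are list members that passed, neighbours of Tet2 that passed, markers, or genes picked once their values were known, as the text says. Promoters come from RefSeq. On simulated counts for the 6-month control pair, the 26-sum fit (19169 genes) recovered 1.59%, 67.6% and 100% of genes changed 1.5-fold, 3-fold and 8-fold, with 8 false calls, and the 10-sum fit (22044 genes) 2.94%, 10% and 80.6%, with 0 false calls. The simulated sums were independent, with the same dispersion for every gene, and only genes above a minimum mean count were changed. Recovery of scarcer genes, and false calls where sums share animals, were thus not measured. The separate table of C57BL6 oocytes was not used here.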

Additional observations from a re-analysis of the deposited data

Results flagged for a closer look

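With sums per header number, 58 genes had a knockout difference in the 6-month controls that differed from that over the other 4 pairs by a test of the difference itself. Among the genes named by rule these were Spp1 (difference of log2 fold changes 7.87, adjusted p = 0.0163), Creld1 (6.72, adjusted p = 0.0359), Nupr1 (6.66, adjusted p = 0.0163) and Ephx2 (6.32, adjusted p = 0.00544), all higher in the 6-month controls, and Srebf1 (−1.47, adjusted p = 0.0436), which was lower. Creld1 was at 0.0116 CPM in wild type and 0.627 CPM in knockout oocytes, a level close to 0 in both groups. In group sums the 6-month resveratrol pair had the same sign for several of these genes, with log2 ratios of 7.91 for Spp1, 5.82 for Nupr1, 5.57 for Ephx2 and −1.09 for Srebf1. Its median knockout oocyte was far lower for Spp1 (5 CPM, against 429 CPM in the knockout controls). The same held for Nupr1 (0.626 against 30.5 CPM) and Ephx2 (1.1 against 58.8 CPM). The 10 group sums called none of them. Granulosa and cumulus markers were high in the same knockout group, and their part in these differences was not tested beyond the fits without oocytes high in them.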

How the results depend on the processing

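No paired analysis was possible because the columns carry no replicate number of the sample titles and each group enters as sums of single oocytes. For the 6-month control pair, the 0 calls of the 10 sums became 34 with DESeq2, 19 without a filter, 3 without the 6-month resveratrol pair and 402 with sums per header number; every other alternative, the 25 oocytes high in granulosa markers (13 of them in this pair) left out among them, gave 0. Over the other 4 pairs, 0 calls became 304 with DESeq2, 109 without a filter, 29 in the additive model of all 5 pairs, 9 without each gene's highest oocyte, 5 with thinned oocytes, 8 without the 6-month resveratrol pair, 2 without the 2-month pair, 1 without the 10-month resveratrol pair and 1757 with sums per header number. The difference between them went from 0 to 58 with sums per header number alone. The cause was not tested.

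With sums per header number, the 402 calls of the 6-month control pair became 674 with DESeq2, 1165 without a filter, 855 with only the 2 groups fitted 52 without the 25 oocytes high in granulosa markers and 79 without the 13 of them in this pair, and ranged from 10 to 339 when 1 sum was left out. RLE factors gave 402, thinned oocytes 380 and the fit without the 6-month resveratrol pair 378. The 1757 calls over the other 4 pairs became 1017 without the 25 oocytes, of which 12 were in those pairs (10 of them 6-month resveratrol knockouts, with 1 sum lost), and 696 without the 6-month resveratrol pair. The 58 differences became 240 with DESeq2, 607 without a filter 28 without the 25 oocytes, 32 without the 13 and 108 without the 6-month resveratrol pair, and 12 to 56 when 1 sum was left out. The 1090 genes past 1.5-fold became 514 with a mean of at least 20 CPM and 237 at 2-fold, both stricter by construction. No call of a named gene changed sign in any alternative. Depth limits the scarce transcripts: Tet2 rests on 277 and 132 counts over 20 oocytes each.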

Other observations

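Manba, Slc39a8 and Spopl, all fully separated between the 6-month control groups, took levels between those of the 2 control groups in the 6-month resveratrol knockout oocytes (55.7, 21.0 and 45.8 CPM in the sum). Their wild-type partners held 181, 13.6 and 110 CPM, so Slc39a8 was not lower than in wild type there. In 8 of these 20 oocytes Manba lay between 0.211 and 9.57 CPM, and in 12 between 43.2 and 130 CPM, with none between. The 12 oocytes with the highest Spopl (49.9 to 77.5 CPM, against at most 21.1 CPM in the rest) were the same 12, and Slc39a8 reached 5 CPM in 12 oocytes of the group. Over these 20 oocytes the rank correlation of Manba was 0.80 with Spopl and 0.72 with Slc39a8, although Spopl lies on another chromosome; all oocytes share a table and the points fall into separate clusters. In the 6-month control knockout oocytes the highest Manba value was 3.41 CPM, and the correlation with Spopl was −0.07. In the knockout oocytes of 2 months, 10 months and 10 months with resveratrol no oocyte reached 5 CPM of Slc39a8. Other genes of the same neighbourhood were not split in this way. Mcub was at 14.8, 23 and 30.6 CPM (lowest, median, highest) in the 20 oocytes and 43.5, 72.8 and 88.3 CPM in their wild-type partners, and Papss1 at 146, 182 and 254 CPM against 46.4, 61.4 and 194 CPM. Rpl34-ps1 was at 0.172, 0.736 and 2.98 CPM against 3.48, 13.7 and 27.9 CPM. The genotype of the single oocytes is not given beyond the group label and was not tested, and the group enters every value given for the other 4 pairs. This pattern was noticed in the data and has no test here.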
